A study of Mus musculus with 4 samples.

Results

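The clade B serpin cluster of mouse chromosome 1 holds Serpinb5, Serpinb12, Serpinb13, Serpinb3a, Serpinb3d, Serpinb3b, Serpinb3c, Serpinb11 and Serpinb2, named here in map order. Its open chromatin was described from ATAC-seq peak lists, an assay in which the Tn5 transposase cuts accessible DNA. Peaks of the 4 libraries were merged where they overlapped by at least 1 bp, and the merged regions that met the span from the first to the last of these 9 genes, widened by 25 kb on each side, were kept. This gave 75 of 82641 regions, all on chr1:106836173-107560478 of mm10, a stretch of 724 kb. The rule that set the 9 genes and the span used no accessibility value, although earlier results of these data were known. The libraries were 2 from wild-type (WT) and 2 from Mapk8-KO keratinocytes of age-matched female mice treated on the skin with Aldara cream, which contains 5% imiquimod, for 8 days. Imiquimod is an agonist of Toll-like receptor 7, and the cream induces a psoriasis-like thickening and inflammation of mouse skin. Mapk8 encodes JNK1, a kinase known for phosphorylating the AP-1 subunit Jun. Per the study's methods, the Mapk8-KO mice carried floxed Mapk8 alleles and a Cre transgene under the keratin 14 promoter, which is active in basal keratinocytes, and the controls were littermates. Basal keratinocytes were sorted as EpCam+CD49f-high cells. The labels give whole skin as the source, and no untreated skin is among the 4 libraries, so all values belong to imiquimod-treated skin. The labels do not say whether the 2 libraries of a genotype came from separate mice.

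Clade B serpins are intracellular or cytoplasmic relatives of the secreted serine protease inhibitors. Most of them trap a serine or cysteine protease by offering a reactive loop as a pseudo-substrate, and several are abundant in stratified epithelia. Serpinb5 encodes maspin, which lacks classical inhibitory activity. Serpinb2 encodes plasminogen activator inhibitor 2, an inhibitor of urokinase. Serpinb13 inhibits cathepsins of the papain family, Serpinb12 inhibits trypsin-like enzymes, and the Serpinb3 genes are the mouse counterparts of the human squamous cell carcinoma antigens. Mouse Serpinb11 is a trypsin inhibitor.

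The 3 regions of the cluster with the highest mean fold percentile carried AP-1 motifs, and a pair of them were copies of one another. The windows below show the summit sequence of the region with the highest mean fold percentile, the stretch of another region that is a copy of it, and the summit sequences of the strongest region upstream of Serpinb5, of the strongest region upstream of Serpinb2, and of a region called in WT libraries and in neither Mapk8-KO library. All are mm10, plus strand, 5′ to 3′. In the second line the capitals mark the 9 bases that differ from the first line. In all other lines they mark the AP-1 motif, TGAGTCA or its reverse complement TGACTCA.
Serpinb3b model, chr1:107214787-107214987: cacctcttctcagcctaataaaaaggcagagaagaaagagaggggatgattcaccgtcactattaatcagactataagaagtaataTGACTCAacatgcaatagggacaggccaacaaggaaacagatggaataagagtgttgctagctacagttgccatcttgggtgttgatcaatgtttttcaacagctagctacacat
Serpinb13 to Gm8080, chr1:107005327-107005527: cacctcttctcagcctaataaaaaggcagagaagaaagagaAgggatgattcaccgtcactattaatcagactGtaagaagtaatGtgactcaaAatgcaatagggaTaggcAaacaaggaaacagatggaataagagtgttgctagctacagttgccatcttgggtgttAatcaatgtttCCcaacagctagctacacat
Serpinb5 upstream, chr1:106839636-106839836: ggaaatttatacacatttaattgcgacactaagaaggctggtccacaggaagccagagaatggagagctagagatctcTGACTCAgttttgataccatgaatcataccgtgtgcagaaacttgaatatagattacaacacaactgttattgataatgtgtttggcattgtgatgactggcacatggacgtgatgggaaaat
Serpinb2 upstream, chr1:107505993-107506193: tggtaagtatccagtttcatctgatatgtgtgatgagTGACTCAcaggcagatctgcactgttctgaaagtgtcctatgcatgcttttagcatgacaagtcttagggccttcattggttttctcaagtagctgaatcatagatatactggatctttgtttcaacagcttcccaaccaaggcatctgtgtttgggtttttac
Serpinb13 upstream, WT libraries, chr1:106968926-106969126: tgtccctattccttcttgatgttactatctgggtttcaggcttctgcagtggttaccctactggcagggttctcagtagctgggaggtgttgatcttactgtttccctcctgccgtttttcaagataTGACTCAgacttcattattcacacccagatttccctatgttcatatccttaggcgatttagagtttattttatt
The first and second lines aligned without a gap over 201 bases, of which 192 (95.5%) were identical. The AP-1 motif lay at the same place in both copies, but its centre was 11 bp before the summit of the first region and 76 bp after that of the second. The summits of the regions that hold these copies are 210 kb apart. No other stretch of the span, on either strand, aligned to the first line above the score used. A read can be placed only where its sequence is unique, and of the 50-base windows of the copies' regions 92.8% (first line) and 93.8% (second line) occurred once in the genome.

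All 4 lists contained the cluster, and the number of peaks in it was higher in the 2 longer lists. The WT lists held 69927 (WT 1) and 54856 (WT 2) peaks, and the Mapk8-KO lists 69583 (Mapk8-KO 1) and 49856 (Mapk8-KO 2). The relative depth of a library was taken as the median ratio of its summit fragments to those of WT 1, over all regions called in all 4 libraries. It was 0.694 for WT 2, 0.646 for Mapk8-KO 2 and 1.12 for Mapk8-KO 1. This ratio holds enrichment at the summits as well as sequencing depth. The genome background was 2.13, 1.53, 2.52 and 1.57 fragments in WT 1, WT 2, Mapk8-KO 1 and Mapk8-KO 2. In the cluster 61, 49, 64 and 35 peaks were called in the same order of libraries. These were 0.0872%, 0.0893%, 0.092% and 0.0702% of each list. Mapk8-KO 2, with the lowest relative depth, had the lowest share, and whether depth accounts for it was not tested. Peaks in the cluster numbered 55.0 ± 8.49 in WT and 49.5 ± 20.5 in Mapk8-KO (SD, n = 2 each). The difference of 5.5 was smaller than the spread between Mapk8-KO libraries (two-sided exact permutation test, p = 1). With 2 libraries against 2, the smallest p this test allows is 0.333. Leaving out WT 1 turned the difference to -0.5, and leaving out Mapk8-KO 2 turned it to -9.0.

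The cluster was dense in called regions. It held 104 regions per Mb, against 29.7 for chromosome 1 and 30.3 for all chromosomes. The clade B genes of chromosome 13, taken with the same flanks, held 26.4 per Mb (32 regions over 1210 kb). The regions of the chromosome 1 cluster were narrower than those of the atlas (median 354 against 410 bp) and poorer in G and C (median 41.7% against 49.4%). Promoter regions, those within 2 kb of an annotated transcription start site (TSS), made up 19 of 75 (25.3%, against 26.7% of the atlas).

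**Figure D1:**
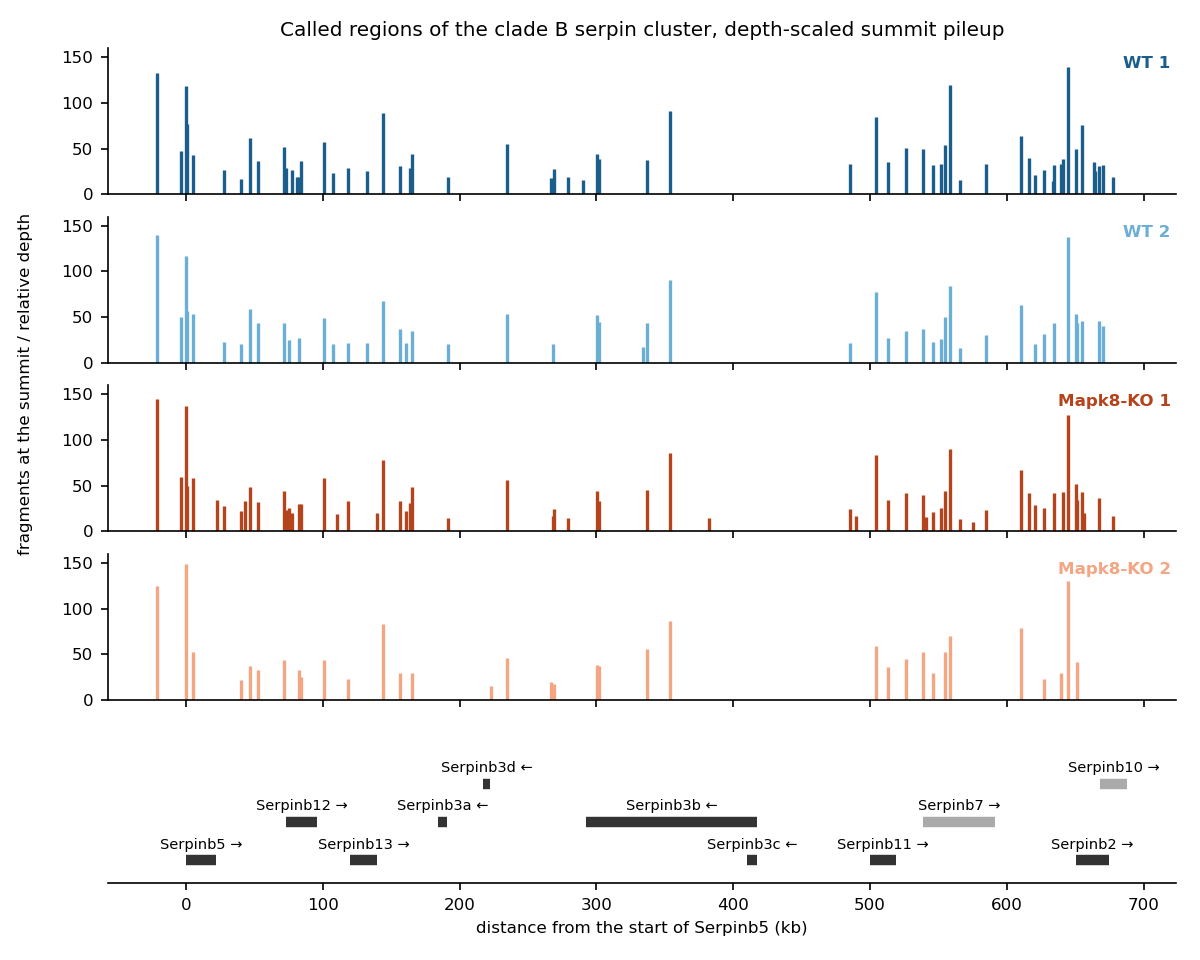
Summit fragments divided by relative depth (y axis) for each called region in each of the 4 libraries, at its distance in kb from the start of Serpinb5 (x axis), with the 9 listed genes in black and Serpinb7 and Serpinb10 in grey, arrows giving the strand. The tall lines at the left, middle and right are the regions 20.9 kb before and at the start of Serpinb5, inside the Serpinb3b gene model and 4.98 kb before Serpinb2, and the stretch around Serpinb3c is empty.

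The 9 genes differed in how their start sites were called. The number of fragments piled up at a summit was recovered from the deposited fold enrichment and −log10 p. Serpinb5 had a merged region over its TSS that was called in every library, chr1:106860492-106861556, which overlaps its first exon. It held 118 fragments in WT 1 and 81 in WT 2, against 153 in Mapk8-KO 1 and 96 in Mapk8-KO 2. Divided by relative depth these were 118, 117, 137 and 149, so both Mapk8-KO libraries lay above both WT libraries. The log2 difference (WT minus Mapk8-KO) was -0.33 ± 0.17 (SE, 95% interval -0.67 to 0.01), with an adjusted p of 0.466 in limma, and did not pass the test.

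Serpinb3b was the only other listed gene with an annotated start inside a merged region called in all 4 libraries. The start lay at the edge of that region. The second annotated start of Serpinb3b, next to that of Serpinb3c, was called in none. Its promoter region, chr1:107161113-107161404, held 44, 36, 50 and 25 fragments in WT 1, WT 2, Mapk8-KO 1 and Mapk8-KO 2, or 44, 51.9, 44.6 and 38.7 after division by relative depth. WT 1 lay below Mapk8-KO 1, so the groups overlapped, and the log2 difference was 0.15 ± 0.25 (SE, interval -0.34 to 0.64, adjusted p = 0.871 in limma). The starts of Serpinb2 and Serpinb3a had peaks in WT 1, WT 2 and Mapk8-KO 1. At the Serpinb2 start, chr1:107511186-107511574, 49, 37 and 58 fragments were counted in those libraries. At the Serpinb3a start, chr1:107052254-107052617, the counts were 19, 14 and 16. Neither of these regions was called in Mapk8-KO 2. A region 856 bp into Serpinb2, chr1:107512353-107512601, was called there with 27 fragments. It was also called in WT 2 and Mapk8-KO 1, with 30 and 38 fragments, but not in WT 1. A region that is not called has no deposited value, so its level in that library is unknown rather than 0.

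Serpinb12 has 2 annotated starts, and both were called in WT 1 and Mapk8-KO 1, the libraries with the highest relative depth. The first held 29 and 26 fragments and the second 27 and 22, in WT 1 and Mapk8-KO 1. A region 1.57 kb before its first start, chr1:106932492-106932884, was called in every library, with 52, 30, 50 and 28 fragments in the order WT 1, WT 2, Mapk8-KO 1, Mapk8-KO 2. Serpinb13 was called 846 bp before its start, chr1:106979696-106980138, with 29, 15, 37 and 15 fragments. Divided by relative depth, the Serpinb12 values were 52, 43.2, 44.6 and 43.3 and the Serpinb13 values 29, 21.6, 33.0 and 23.2, and the genotypes overlapped in both. The log2 differences were 0.06 (interval -0.43 to 0.54) for the Serpinb12 region and -0.2 (interval -0.79 to 0.4) for the Serpinb13 region.

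Serpinb3d had a single call near its start, 669 bp upstream, with 10 fragments in Mapk8-KO 2 alone. Serpinb11 had none within 2 kb of its start, and its first region lay 3.54 kb downstream. Serpinb3c had no call within 34.9 kb of its start. It lies in a stretch of 103 kb, chr1:107243454-107346047, that held no region in any library, the longest such stretch of the cluster. Of the 50-base windows of this stretch 84.1% occurred once in the genome, and of those of the Serpinb3c gene 87.0%.

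Serpinb3a, Serpinb3b and Serpinb3c have nearly the same promoter sequence, although only the promoters of Serpinb3a and Serpinb3b were called. The RefSeq promoters (GRCm38.p6, minus strand of the chromosome, 5′ to 3′ along each gene) are shown from 130 bases before to 20 bases after the start for this reason. Capitals mark bases that differ from the Serpinb3b locus in a pairwise alignment.
Serpinb3b, chr1:107161095-107161244: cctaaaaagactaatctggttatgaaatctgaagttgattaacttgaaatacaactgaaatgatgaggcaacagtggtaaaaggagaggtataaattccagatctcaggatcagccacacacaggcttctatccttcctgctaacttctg
Serpinb3a, chr1:107052284-107052433: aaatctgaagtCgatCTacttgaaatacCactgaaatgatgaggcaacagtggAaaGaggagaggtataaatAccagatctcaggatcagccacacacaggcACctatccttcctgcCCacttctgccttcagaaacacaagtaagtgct
Serpinb3c, chr1:107278352-107278501: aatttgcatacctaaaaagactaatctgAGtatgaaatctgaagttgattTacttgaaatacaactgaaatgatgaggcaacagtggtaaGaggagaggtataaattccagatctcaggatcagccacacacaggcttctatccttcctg
Over the full RefSeq window of 300 bases, 279 bases of Serpinb3a (93%) and 287 of Serpinb3c (95.7%) were identical to the Serpinb3b locus, against 187 (62.3%) of Serpinb3d. In the sequence next to the start, 86.1% of 50-base windows were unique for Serpinb3b, 87.2% for Serpinb3c and 98.4% for Serpinb3a. The part of read placement in the missing call at Serpinb3c was not tested.

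Away from the start sites, the strongest regions of the cluster were open to a similar degree in all libraries. Fold enrichment, the summit pileup over the local background, was ranked within each list over the 40159 regions called in all 4 libraries, so that 100 is the highest percentile. The region inside the Serpinb3b gene model, chr1:107214638-107215171, whose summit is the first sequence shown, ranked at 99.4 and 97.5 in WT 1 and WT 2, and at 99.0 and 98.1 in Mapk8-KO 1 and Mapk8-KO 2. It held 91, 63, 96 and 56 fragments, or 91, 90.8, 85.7 and 86.7 after division by relative depth, so both WT libraries lay slightly above both Mapk8-KO libraries. Its log2 difference was 0.03 ± 0.19 (SE, interval -0.35 to 0.4, adjusted p = 0.979 in limma). GENCODE places it in an intron of a Serpinb3b model of 124 kb that reaches as far as the start of Serpinb3c, and the nearest TSS is that of Gm8084, 21.1 kb away.

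Its copy between Serpinb13 and Gm8080, chr1:107005142-107005751, ranked at 96.4, 92.6, 92.2 and 98.3, with 89, 47, 87 and 54 fragments, in the same order of libraries. Divided by relative depth these were 89, 67.7, 77.7 and 83.6, and the WT libraries lay on both sides of the Mapk8-KO libraries. The log2 difference was -0.1 ± 0.2 (SE, interval -0.49 to 0.28). The region 20.9 kb before Serpinb5, chr1:106839507-106840280, ranked at 95.8, 97.2, 96.4 and 93.4. It held 133, 97, 162 and 81 fragments, or 133, 140, 145 and 125 after division by relative depth, with a log2 difference of -0.03 ± 0.17 (SE, interval -0.37 to 0.31). These 3 regions ranked at 92.2 or higher in every list, and none differed between the genotypes beyond its error.

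Of the regions with the most fragments, those before Serpinb2 and at the start of Serpinb5 lay where the local background was also high. The methods name no control library. Without one, the local background is drawn from the same library around the peak, so fragments and background are not independent. The region 4.98 kb before Serpinb2, chr1:107505853-107506443, held 139, 96, 142 and 84 fragments in WT 1, WT 2, Mapk8-KO 1 and Mapk8-KO 2, or 139, 138, 127 and 130 after division by relative depth. Both WT libraries lay above both Mapk8-KO libraries, with a log2 difference of 0.06 ± 0.17 (SE, interval -0.28 to 0.4, adjusted p = 0.934 in limma). Its fold ranked only at 52.6, 70.7, 58.1 and 79.8. The local background that MACS2 set against it was 6.52, 5.25, 5.27 and 4.16 times the genome background. The start of Serpinb5 was of the same kind, with fold percentiles of 32.1, 45, 43.2 and 65.1. The region 20.9 kb before Serpinb5, with 133, 97, 162 and 81 fragments, was not of this kind. Its local background was 3.42, 3.32, 3.52 and 3.08 times the genome background.

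The local background was highest at 3 genes. Over the 10 regions from 10.3 kb before Serpinb2 to the start of Serpinb10, it reached 8.48 (WT 1) and 5.25 (WT 2) times the genome background, against 5.4 (Mapk8-KO 1) and 4.16 (Mapk8-KO 2). Over the 4 regions around the start of Serpinb5 it reached 7.59, 6.56, 7.47 and 5.86, and over 2 regions in an intron of Serpinb7 5.24, 4.12, 4.2 and 3.41. The median over the cluster's regions was between 1.49 and 1.9 times the genome background, against 1.46 to 1.64 over the whole lists. The number of regions called around Serpinb2 was 8 of 10 in WT 1, 7 in Mapk8-KO 1, 5 in WT 2 and 3 in Mapk8-KO 2. The second WT library and the second Mapk8-KO library, of lower relative depth, thus had fewer calls than the first of each genotype.

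**Figure D2:**
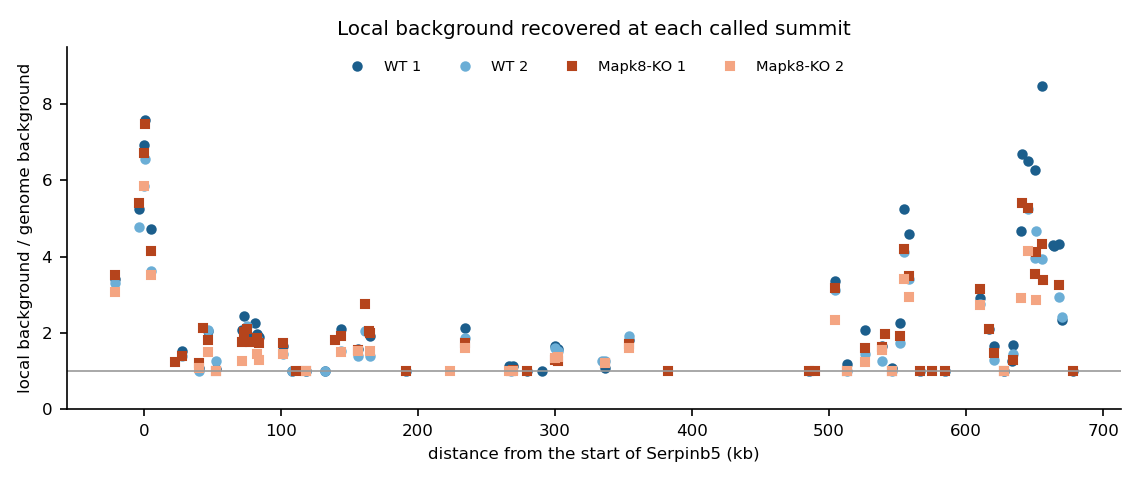
Local background at each called summit divided by the genome background of the library (y axis), at its distance in kb from the start of Serpinb5 (x axis), with circles for WT and squares for Mapk8-KO libraries. The points rise above 4 around the starts of Serpinb5 and Serpinb2 and in Serpinb7, and lie lower around the Serpinb3 genes.

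The other regions with calls in every library were spread over the cluster. Upstream of Serpinb12, 20.8 kb before its start, a region with a p63 motif held 36, 30, 36 and 21 fragments in WT 1, WT 2, Mapk8-KO 1 and Mapk8-KO 2. Upstream of Serpinb13, 18.4 kb before its start, the counts were 57, 34, 65 and 28, and upstream of Serpinb3d, at 11.5 kb, 55, 37, 63 and 30. The intronic region of Serpinb11 held 85, 54, 94 and 38. Each of these was lowest in Mapk8-KO 2 before depth was taken into account. In the Serpinb3b model, 4.07 kb from Gm8084, a region held 37, 30, 51 and 36 fragments, and after division by relative depth both Mapk8-KO libraries (45.5 and 55.7) lay above both WT libraries (37 and 43.2). Its log2 difference of -0.38 (interval -0.87 to 0.11, adjusted p = 0.582 in limma) did not pass the test.

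Serpinb7 and Serpinb10 lie in the same span, and Serpinb8 lies beyond it. Serpinb7, whose human counterpart is mutated in a palmoplantar keratosis, had 9 regions in its gene, of which 4 were called in every library. An intronic region 2.45 kb before its annotated start held 119, 58, 101 and 45 fragments and an AP-1 motif. Its log2 difference was 0.28 ± 0.19 (SE, interval -0.09 to 0.66). A region over the first base of the Serpinb7 gene model, chr1:107399212-107399814, was also called in every library, with 50, 26, 44 and 34 fragments. Serpinb10, a serpin known from blood cells, had a region 26 bp from its start with 31, 32 and 41 fragments in WT 1, WT 2 and Mapk8-KO 1, and none was called there in Mapk8-KO 2.

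**Figure D3:**
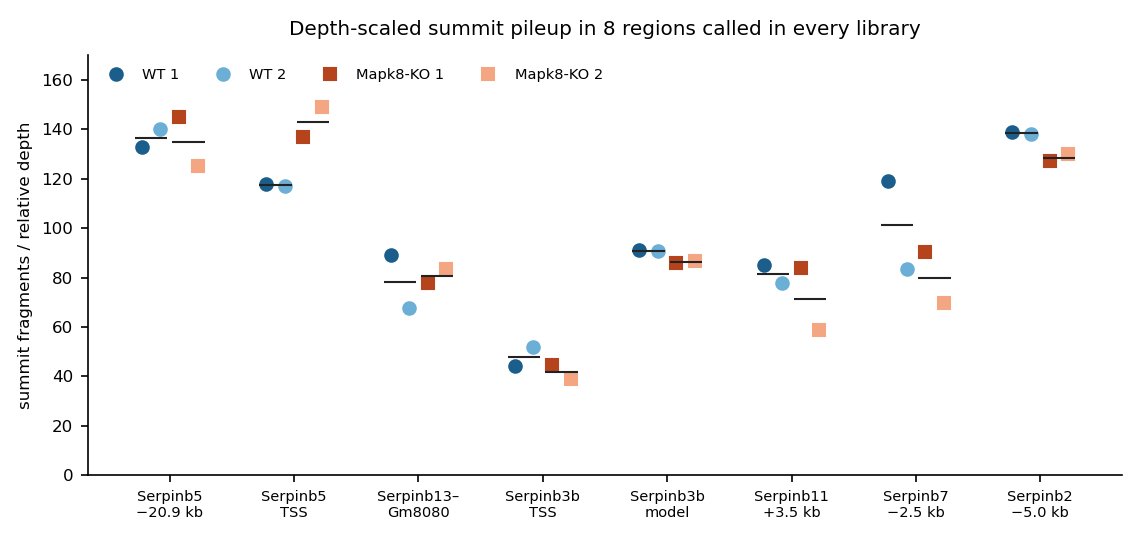
Summit fragments divided by relative depth (y axis) in 8 regions called in every library (x axis), with circles for WT, squares for Mapk8-KO and a short line at the mean of 2 libraries. The values run from 38.7 in Mapk8-KO 2 at the Serpinb3b start to 149 in Mapk8-KO 2 at the Serpinb5 start, where both Mapk8-KO libraries lie above both WT libraries.

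The comparison of WT with Mapk8-KO keratinocytes asks whether loss of JNK1 changed accessibility in the cluster. Among the 28 regions called in all 4 libraries, the limma test on log2 fragments, fitted over all 40159 such regions, called 0 of 28 as higher in WT and 0 of 28 as higher in Mapk8-KO at an adjusted p under 0.05. The shares of all regions called were 0.498% and 0.11%, shares at which 28 regions would hold fewer than 1 call. At an unadjusted p under 0.05, 0 of 28 were called, against 11.3% of all regions. The log2 differences of the 28 ran from -0.49 to 0.44 with a median of 0.03, and 16 lay above 0. Over all regions the median was -0.05, and the middle 90% ran from -0.5 to 0.51. The SEs of the 28 were 0.17 to 0.32, and the smallest adjusted p was 0.466, at the Serpinb5 start. The lowest interval bound was -1.08 (4.93 kb into Serpinb12), so a difference of that size lay within the error of that region.

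**Figure D4:**
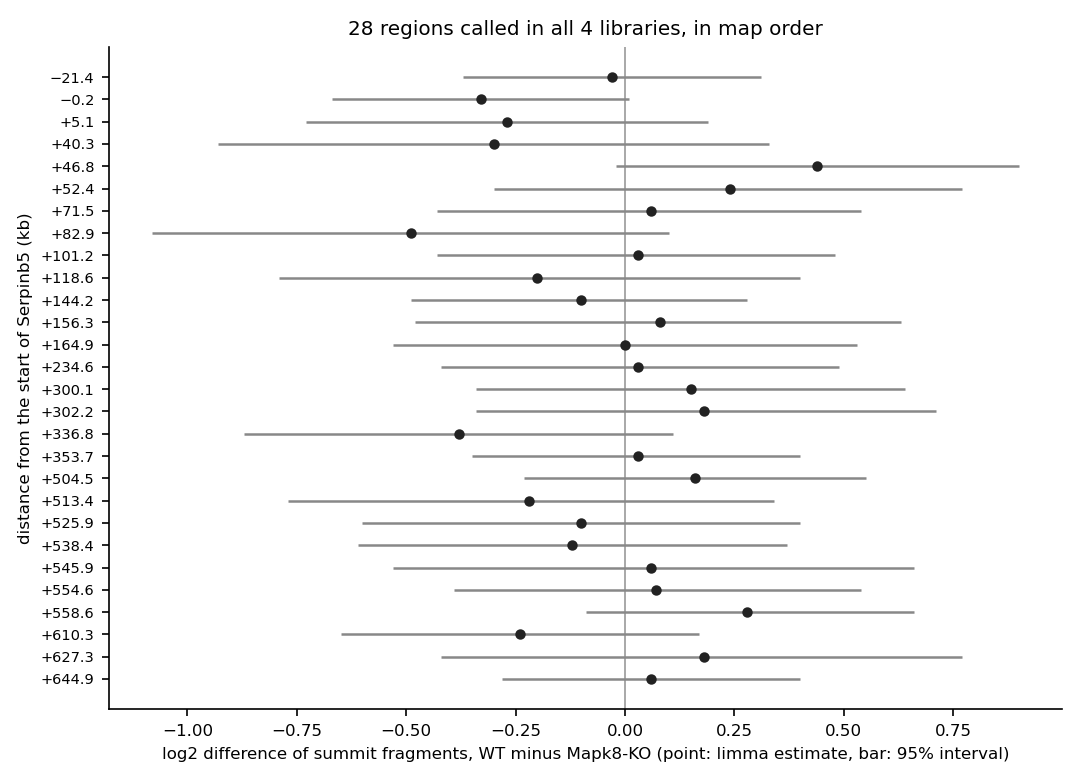
Log2 difference of summit fragments between WT and Mapk8-KO (x axis, positive where WT was higher) for the 28 regions called in all 4 libraries, in map order and given by the distance of the summit in kb from the start of Serpinb5 (y axis). Points are limma estimates and bars their 95% intervals, and the estimates run from -0.49 to 0.44.

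By rank the outcome was the same. A region was counted as ranked higher in a genotype where even its lower percentile in that genotype exceeded the higher one in the other genotype by 10 points or more. Of the 28 regions 0 ranked higher in WT, against 4.65% of all regions ranked, and 0 ranked higher in Mapk8-KO, against 4.07%. Read over 3 libraries, with each library left out in turn, 2 to 5 regions ranked higher in WT and 3 to 6 in Mapk8-KO. That rule is looser, so these counts cannot be read against the 4.65% and 4.07%.

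Calls present in a single genotype were few. Of 75 regions, 3 were WT-specific, with peaks in WT 1 and WT 2 and in neither Mapk8-KO library (4.0%, against 2.17% of the atlas). The reverse was true of 0 of 75, against 1.65% of the atlas. The first WT region, chr1:106968794-106969344, lies 11.6 kb before Serpinb13 and held 23 (WT 1) and 14 (WT 2) fragments, with the AP-1 motif shown in the last of the summit sequences. The second, chr1:106993523-106993723, lies in an intron of Serpinb13 and held 25 and 15. The third, chr1:107531101-107531508, lies in overlapping introns of Serpinb10 and Serpinb2 and held 32 and 28. These counts lay below the medians of 50.5 (WT 1) and 32.5 (WT 2) over the 28 shared regions, and the absence of a call in a Mapk8-KO library is not a measurement of its level. Leaving out a library loosens both definitions, since fewer libraries have to agree. Without Mapk8-KO 1 the count of WT regions was then 17 of 75. These were the 3 above (2.17% of the atlas) and 14 called in all libraries but Mapk8-KO 2 (9.91% of the atlas). Without WT 2 the count was 8, the 3 above and 5 called in WT 1 alone (9.08% of the atlas). The count of Mapk8-KO regions was 9 without Mapk8-KO 2, all called in Mapk8-KO 1 alone (8.47% of the atlas). Without WT 1 it was 2, both called in all libraries but WT 2 (4.86%). Without WT 2 it was 1, called in all but WT 1 (0.558%). Without Mapk8-KO 1 it was 1, called in Mapk8-KO 2 alone (1.97%). To each of these atlas shares the 1.65% specific to Mapk8-KO is to be added.

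More of the cluster's regions were missing from one library than from one genotype. Called in all 4 libraries were 28 of 75 (37.3%), against 48.6% of the atlas. Called in WT 1, WT 2 and Mapk8-KO 1 but not in Mapk8-KO 2 were 14 of 75 (18.7%), against 9.91% of the atlas. The starts of Serpinb2, Serpinb3a and Serpinb10 belong to these 14, as does an AP-1 region 956 bp into Serpinb5 with 77, 39 and 56 fragments. The median fragments of the 14 were 32.5 in WT 1, 19.5 in WT 2 and 31.5 in Mapk8-KO 1, below the medians of the shared regions in those libraries (50.5, 32.5 and 50.5). When every list was shortened to 49856 peaks by −log10 p, 44 of the cluster's regions were called in WT 1, 45 each in WT 2 and Mapk8-KO 1, and 34 in Mapk8-KO 2. Mapk8-KO 2 thus had fewer calls here than the other 3 libraries at equal list length, while Mapk8-KO 1 did not.

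**Figure D5:**
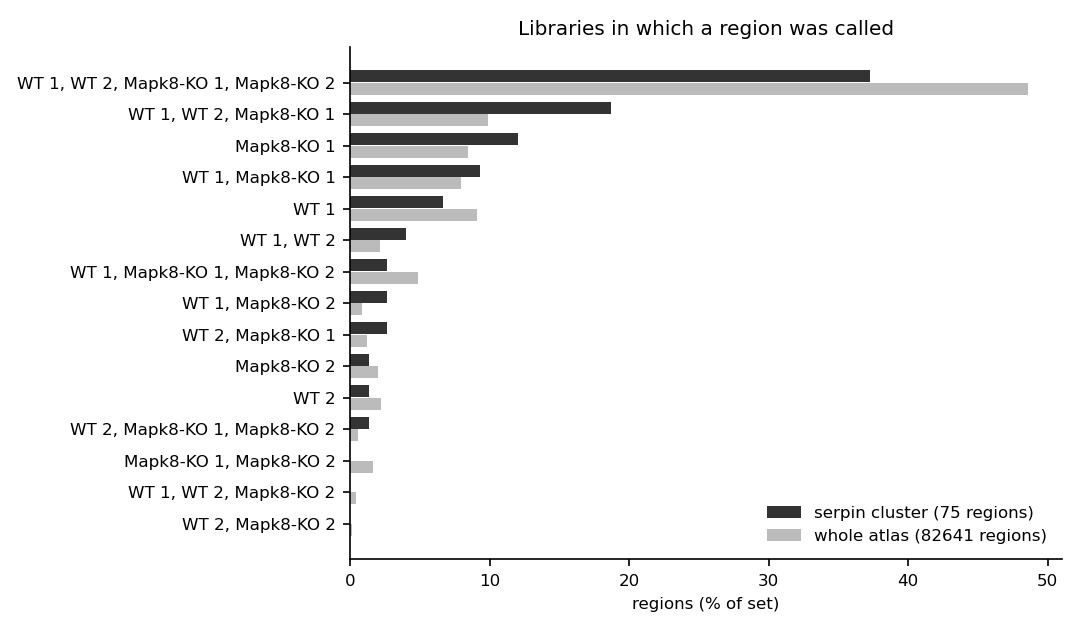
Share of regions (x axis, %) called in each combination of libraries (y axis), for the 75 regions of the cluster in black and all 82641 regions in grey. The cluster has a lower share called in all 4 libraries (37.3% against 48.6%) and a higher share missing from Mapk8-KO 2 alone (18.7% against 9.91%).

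Motifs were counted within 100 bp of the strongest summit of each region, on both strands. The AP-1 motif was found in 14 of 75 regions (18.7%, Wilson 95% interval 11.5 to 28.9), against 23.7% of the atlas. Outside promoters the count was 12 of 56 (21.4%, interval 12.7 to 33.8), against 28%. The share in the cluster thus lay below that of the atlas, which falls within the first interval and also within the second. The p63 consensus, the motif of a transcription factor of basal keratinocytes, was found in 5 of 75 (6.67%, interval 2.88 to 14.7), against 9.08%. A C/EBP motif (TTGCNCAA) was found in 1 region, at the first start of Serpinb12, and a STAT motif (TTCCNGGAA) in 1. CREB (TGACGTCA) and GRHL (AACCGGTT) motifs were found in 0 of 75, and both were rare in the atlas (0.766% and 0.238%). In the RefSeq promoters, which matched 8 of the 9 genes (all but Serpinb13), the AP-1 motif was absent, and it was present in 5.2% of all 32851 promoters of this length.

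The clade B genes of chromosome 13 and a list of proteases that serpins of this clade are known to inhibit, or that act in the same pathways, were also read. The chromosome 13 regions were taken by gene span with the same flanks, and the protease regions by nearest TSS. Of the 32 chromosome 13 regions, 16 were called in all 4 libraries (48.6% of the atlas were). Of these 16, 0 were called by limma (0.498% and 0.11% of all regions) or by rank (4.65% and 4.07%), and 0 of 32 were specific to a genotype (2.17% and 1.65%). A start is counted here as called where a peak lay within 2 kb of it, and by that rule Serpinb12 and Serpinb13 also had a region called in every library. Serpinb2 too had a peak within 2 kb of its start in every library, though not in the same region. Serpinb1a, Serpinb6a, Serpinb6c and Serpinb9 had called starts in every library, and 10 of the 15 genes in none. Of the 10 proteases, Plau (urokinase), Plat (tissue plasminogen activator), Ctsl, Ctsh and Ctsb (cathepsins) had called starts in every library, and Ctsk, Ctss, Ctsg and Plg in none. Of their 29 regions 15 were called in all 4 libraries and could be tested, with 0 limma calls. By rank 1 of these 15 was higher in WT (4.65% of all regions) and 0 in Mapk8-KO (4.07%), and of the 29 regions 1 was WT-specific (2.17%) and 2 were Mapk8-KO-specific (1.65%). A region 612 bp into Plau was called in both Mapk8-KO libraries alone, with 32 and 19 fragments, and one 4.35 kb from Plat in both WT libraries alone, with 37 and 23. Near Ctsl, one region 5.5 kb away was called in the Mapk8-KO libraries alone, with 25 and 13 fragments. Another, 6.64 kb away, ranked at 46.9 and 64.6 in WT and at 24.5 and 17.3 in Mapk8-KO.

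The cell type of the libraries was read from called start sites. All 6 keratinocyte markers were called in WT 1, WT 2 and Mapk8-KO 1 and 5 in Mapk8-KO 2, and 0 of 5 immune markers were called in any library. The peaks at Krt14, the mouse gene of the keratin whose promoter drives the Cre, held up to 38 (WT 1) and 17 (WT 2) fragments, against 199 (Mapk8-KO 1) and 109 (Mapk8-KO 2). Endothelial, fibroblast and melanocyte markers were called at 2 of 3 starts each in all 4 libraries, Pecam1 and Pdgfra among them. The sort included antibodies to CD45, CD31 and CD140a, which mark immune cells, endothelial cells and fibroblasts. The part of these differences in the values of the cluster was not tested.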

How the data were processed

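Per the study's methods, the authors aligned paired reads to mm10 with Bowtie2, removed reads with several alignments and called peaks with MACS2. One peak list was deposited per library, and the methods name no control library. The Bowtie2 and MACS2 versions are not given in the sources used here. The deposited lists give a fold enrichment, −log10 p and −log10 q values and a score per peak. The highest deposited q was 0.0097. No read counts were analysed here. Whole fragments at each summit and their local background were recovered from the deposited fold and −log10 p (at least 99.996% of peaks within 0.05 of a whole number). Log2 fragments, centred per library on their median, were compared by limma 3.58.1 in R 4.3.3, with its variance trend on and p values adjusted by Benjamini-Hochberg over all regions called in all 4 libraries, after a test on simulated data. The study's test, DESeq2 on reads per region, needs counts and was not run. TSSs came from the GENCODE basic annotation. Named regions were those at the start of each gene, the strongest per gene, the 5 highest in mean percentile and all specific to a genotype. Genes and lists were chosen with earlier results of these data known. Wilson intervals of shares cover counting error only, and the limma intervals and p values measure only the spread between these libraries.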

Additional observations from a re-analysis of the deposited data

How the results depend on the processing

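Over 231 alternative values of 22 results, 182 kept their direction and side of the threshold or, for counts, stayed within 1.5 times. The limma count in the cluster was 0 under every setting, at 0 (no variance trend, or fold in place of fragments) to 1718 calls over all regions (without Mapk8-KO replicate 1), and the number with unadjusted p under 0.05 was 0 to 3. The median log2 difference ran from -0.08 to 0.06. Leaving out 1 library at a time, the difference in peaks ran from -9.0 to 20 (-0.5 without WT 1, -9.0 without Mapk8-KO 2), regions specific to WT from 3 to 17 and to Mapk8-KO from 1 to 9, and regions ranked higher in WT from 2 to 5 and in Mapk8-KO from 3 to 6. The rules over fewer libraries are looser, so these counts cannot be read against the shares of all regions under the main rules. A gap of 5 points, also a looser rule, ranked 2 regions higher in WT and 1 in Mapk8-KO. Percentiles over whole lists gave 1 in Mapk8-KO, and fragments in place of fold 1 in WT, both chosen after seeing the data. No share of all regions is at hand for the alternative rank counts. The replicate numbers are shared labels only (correlation of deviations 0.0392). With replicate number as a block, WT ranked higher in 1 region and Mapk8-KO in 2, the paired differences in peaks were -3.0 and 14.0 (mean 5.5), and limma called 0 of 28 in the cluster and 386 regions in all, or 379 with the GC correction.

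Several log2 differences near 0 changed sign, and none passed the test in any setting. With fold in place of fragments they were 0.04 (Serpinb5 20.9 kb upstream), -0.12 (Serpinb12 1.57 kb upstream), -0.08 (Serpinb3d 11.5 kb upstream), -0.01 (Serpinb3b model) and -0.12 (Serpinb2 4.98 kb upstream). With the GC correction, with or without the replicate block, they were -0.04 (Serpinb12), -0.0049 (Serpinb13 18.4 kb upstream), -0.08 (Serpinb3d), -0.07 (Serpinb3b model) and -0.06 (Serpinb2). Quantile normalization gave 0.06 at Serpinb5 20.9 kb upstream. Leaving out 1 library at a time gave ranges of -0.11 to 0.04 (Serpinb5 20.9 kb upstream), -0.08 to 0.19 (Serpinb12), -0.16 to 0.21 (Serpinb13 18.4 kb upstream), -0.42 to 0.03 (Serpinb13 846 bp upstream), -0.3 to 0.09 (Serpinb13 to Gm8080), -0.08 to 0.14 (Serpinb3d), -0.009 to 0.06 (Serpinb3b model) and -0.07 to 0.39 (Serpinb11 intron). The cause was not tested. A region absent from a library's list has no value in that library, and whether depth accounts for missing calls was not tested.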
